A study of Homo sapiens with 6 samples.

Results

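The 41 genes described here encode the subunits of complexes that slide, evict or mark nucleosomes and that fold the chromatin fibre. They comprise 15 BAF and PBAF subunits, 1 ISWI ATPase, 7 CHD remodelers, 2 genes of the INO80 and TIP60 complexes, 6 genes of CTCF and cohesin, and 4 PRC2 and 6 PRC1 genes of the Polycomb group. The genes were taken by complex, and all 41 were found among the 20136 protein-coding genes of the GENCODE annotation on hg19. For each gene, the peaks of each library that lay within 1 kb on either side of the gene start were collected, where the gene start is the 5′ end of the gene record. A gene was called in a library when at least 1 bp of a peak lay in that window.

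The peaks came from ATAC-seq, in which the Tn5 transposase inserts sequencing adapters into open DNA, on bulk GM12878 cells, an established human lymphoblastoid B-cell line. All 6 libraries were made from cells fixed with 1% PFA, with no antibody, and, per the sample labels, lysed with the detergent Igepal CA-630 before transposition. Proteinase K reverse crosslinking at 65 °C overnight followed in one of 3 ways, with 2 libraries of each. The SDS purified libraries used the traditional buffer that contains SDS, the nonSDS purified libraries used the new buffer without SDS, and the nonSDS unpurified libraries used the new buffer and went into the barcoding PCR with no DNA purification, as in the bulk Pi-ATAC workflow. The methods state purification for the SDS buffer, the study gives it for the nonSDS purified group only outside the methods, and the labels speak of it only where it was left out. The methods also give the SDS protocol another lysis and another reaction volume. Only for the unpurified workflow do they give an EDTA quench, a spin that removes the supernatant and heat inactivation of proteinase K. The salt and detergents of the 2 buffers differ too. The labels give an inactivation step for all 6 libraries. None of these differences can be told apart from SDS. Nothing states that replicates came from separate cultures, so p-values measure only the spread between these libraries, which may be technical.

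Remodelers of the BAF, ISWI, CHD and INO80 families use ATP to move nucleosomes and thereby expose or cover DNA. Cohesin extrudes chromatin loops that stop at bound CTCF, and Polycomb complexes keep genes silent, PRC2 by methylating histone H3 and PRC1 by ubiquitinating histone H2A and compacting chromatin. Most subunits are needed in every cell, whereas some are paralogs that take the same position in only a few tissues, such as the neuronal BAF subunit DPF1, the heart and muscle subunit SMARCD3 and the neuronal remodeler CHD5.

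The libraries held 30136 to 38023 peaks, and the median peak had 20 to 22 reads at its summit. The depth of the libraries, read from the lowest local background, spanned 1 to 1.24 relative to the shallowest. Each list holds only peaks that passed the q value threshold of 0.01, so a gene without a peak had no peak past this threshold, which is not the same as closed chromatin. In bulk libraries, openness in fewer cells and less openness per cell cannot be told apart. Of 10 B cell markers, 2 had a peak in all 6 libraries (MS4A1 and EBF1) and 4 had none at their gene start (BLK, CD22, CD37 and POU2AF1), and with all coding starts 3 had a peak in all 6 and 2 had none. All 7 erythroid and all 6 epithelial markers were without a peak in every library, and 5 of 6 myeloid markers were too. Of 7 T cell markers, CD8A, TCF7 and BCL11B were called in all 6 at the gene start. The other 4 (CD3D, CD3E, CD3G and CD8B) were called in none. At the start of its canonical transcript CD8A was called in no library. Of 6 neural markers, SYT1 was called in all 6 and the other 5 in none at the gene start.

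Reference sequences at 4 highly ranked genes and at 4 genes without a call at the gene start are shown first. The next 4 sequences are the reference bases around the median summit of the highest ranked gene in 4 complexes, on the strand of the gene and ending before its first transcribed base, at chr4:144434545-144434744 (SMARCA5), chr3:136471334-136471533 (STAG1), chr14:21924286-21924475 (CHD8) and chr7:148581414-148581594 (EZH2) of GRCh37, the same build as hg19. Capitals mark matches on either strand to the GC box (GGGCGG), the CCAAT box (CCAAT), the ETS core (TTCCGG), the E-box (CACGTG), the CRE (TGACGTCA), the TATA box (TATAAA), the NRF1 motif (GCGCATGCG) and the YY1 motif (AAGATGGCG).
SMARCA5: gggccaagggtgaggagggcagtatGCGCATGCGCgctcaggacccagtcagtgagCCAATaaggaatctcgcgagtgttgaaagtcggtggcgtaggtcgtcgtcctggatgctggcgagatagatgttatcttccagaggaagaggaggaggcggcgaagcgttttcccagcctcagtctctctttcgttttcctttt
STAG1: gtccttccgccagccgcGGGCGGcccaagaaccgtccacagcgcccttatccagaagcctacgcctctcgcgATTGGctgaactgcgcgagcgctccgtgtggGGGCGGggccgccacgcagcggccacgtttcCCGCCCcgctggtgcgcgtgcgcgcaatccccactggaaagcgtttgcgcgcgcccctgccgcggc
CHD8: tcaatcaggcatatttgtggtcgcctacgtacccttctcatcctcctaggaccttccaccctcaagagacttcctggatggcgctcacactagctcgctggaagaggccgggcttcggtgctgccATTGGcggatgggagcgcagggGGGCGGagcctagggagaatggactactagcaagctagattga
EZH2: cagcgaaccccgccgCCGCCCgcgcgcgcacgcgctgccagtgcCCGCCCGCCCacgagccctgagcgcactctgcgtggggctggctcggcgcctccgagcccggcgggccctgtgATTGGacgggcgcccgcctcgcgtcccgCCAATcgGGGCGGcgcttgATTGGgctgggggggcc
The SMARCA5 window held NRF1 matches on both strands, which overlap by all but 1 base because the motif is nearly its own reverse complement, and 1 CCAAT box. The STAG1 window held 3 GC boxes and 1 CCAAT box. The CHD8 window held 1 GC box and 1 CCAAT box, and the EZH2 window held 4 GC boxes, of which 2 overlap, and 3 CCAAT boxes. The GC content of these windows was 56% for SMARCA5, 73% for STAG1, 57.9% for CHD8 and 80.1% for EZH2. The SMARCA5 and STAG1 windows also lie over exons of the divergent noncoding genes SMARCA5-AS1 and STAG1-DT, and no annotated exon lies in the other two.

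Of the genes that no library called at the gene start, the 4 with the fewest calls at their canonical transcript are shown next, as the 200 bases before the gene start. They lie at chr1:6240382-6240581 (CHD5), chr7:150974983-150975182 (SMARCD3), chr19:38720355-38720554 (DPF1) and chr15:93429233-93429432 (CHD2) of GRCh37, with capitals as above.
CHD5: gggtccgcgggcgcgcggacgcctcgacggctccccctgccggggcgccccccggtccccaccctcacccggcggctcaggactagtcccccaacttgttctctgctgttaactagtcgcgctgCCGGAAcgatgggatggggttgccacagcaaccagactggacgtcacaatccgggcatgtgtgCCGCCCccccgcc
SMARCD3: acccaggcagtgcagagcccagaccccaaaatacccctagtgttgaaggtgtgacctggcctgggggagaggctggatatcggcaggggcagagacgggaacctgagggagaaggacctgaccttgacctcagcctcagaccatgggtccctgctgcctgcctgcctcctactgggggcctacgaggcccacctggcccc
DPF1: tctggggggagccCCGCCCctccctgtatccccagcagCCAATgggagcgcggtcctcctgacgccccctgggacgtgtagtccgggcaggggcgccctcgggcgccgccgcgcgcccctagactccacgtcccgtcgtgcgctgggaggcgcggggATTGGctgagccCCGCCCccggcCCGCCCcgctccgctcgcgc
CHD2: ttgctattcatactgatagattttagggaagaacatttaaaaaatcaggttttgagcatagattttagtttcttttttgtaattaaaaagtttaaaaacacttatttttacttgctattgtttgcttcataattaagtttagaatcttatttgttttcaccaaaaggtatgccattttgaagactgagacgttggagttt
These windows were of different kinds. The gene start is also the canonical start for CHD5, but lies 29202 bp from it for SMARCD3, 5492 bp for DPF1 and 14121 bp for CHD2. The CHD5 and DPF1 windows had 71% and 78.5% GC and held 21 and 26 CpG dinucleotides. The SMARCD3 window had 64.5% GC with 3 CpG, and the CHD2 window, which overlaps an exon of the noncoding gene CHASERR, had 26.5% GC with 1 CpG. Neither SMARCD3 nor CHD2 held a match to any of the 8 motifs here, while CHD5 held an ETS core and a GC box, and DPF1 3 GC boxes and 2 CCAAT boxes. A missing match says only that these letters are not in the window.

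With peaks sought at the gene start, 24 of 41 genes (58.5%) were called in all 6 libraries, 8 in 1 to 5 libraries, and 9 (22.0%) in none. Over all 20136 protein-coding genes, 40.5% were called in all 6, 2846 genes in 1 to 5, and 45.4% in none. Each library alone called 27 to 29 of the 41 genes, which is 65.9% to 70.7%. The background in the same libraries was 47.5% and 45.9% of all genes for SDS purified, 49.3% and 46.4% for nonSDS purified, and 49% and 48.8% for nonSDS unpurified. By protocol, the share of these genes called was 67.1% ± 1.72 for SDS purified, 68.3% ± 3.45 for nonSDS purified and 68.3% ± 0 for nonSDS unpurified (SD, n = 2 each). The protocol means differed by less than the SD within nonSDS purified.

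**Figure D1:**
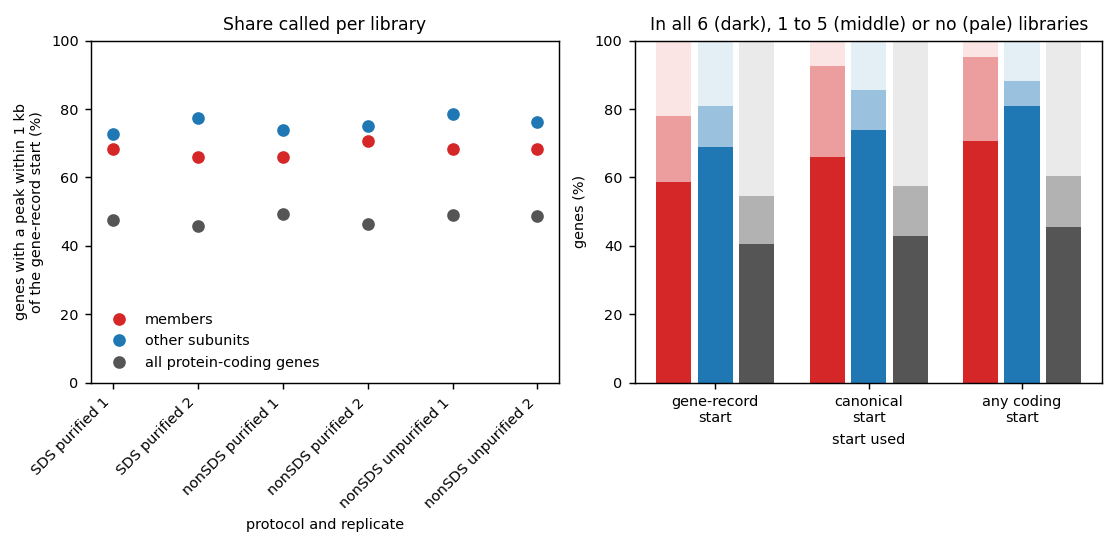
Left, the percentage of genes with a peak within 1 kb of the gene-record start (vertical axis) in each of the 6 libraries (horizontal axis), for the 41 genes of the module, 84 other subunits of the same complexes and all 20136 protein-coding genes. Right, the percentage of each list called in all 6 (dark), in 1 to 5 (middle) or in no library (pale) for 3 definitions of the start. The module lies above all genes in every library, and the other subunits, at 72.6% to 78.6%, lie above the module in every library. The pale part of the module shrinks from 22.0% at the gene-record start to 4.88% with any coding start.

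Which of these genes counted as exceptions changed with the start that was used. The gene record begins at the most upstream annotated transcript, and in 10 of the 41 genes (24.4%) this lay more than 1 kb from the start of the canonical transcript, against 16.4% of all genes. None of those 10 was called in all 6 libraries at the gene start and 8 were called in none, whereas at the canonical start 3 of the 10 were called in all 6. Among the other 31 genes, 24 were called in all 6 and 1 in none. Among all genes with the canonical start within 1 kb of the gene start, 43.7% were called in all 6 and 42.1% in none.

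At the canonical start, 27 of 41 genes (65.9%) were called in all 6 libraries and 3 (7.32%) in none, against 42.8% and 42.4% of all genes. With any start of a protein-coding transcript, 29 (70.7%) were called in all 6 and 2 (4.88%) in none, against 45.5% and 39.5% of all genes. This setting takes the strongest peak over all coding starts, so a gene with more starts has more windows. SMARCA5 had 1 such start and SMARCA2 had 43. Only SMARCD3 and CHD5 were without a peak at every coding start in all 6 libraries. CHD3 joined them at the canonical start.

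**Figure D2:**
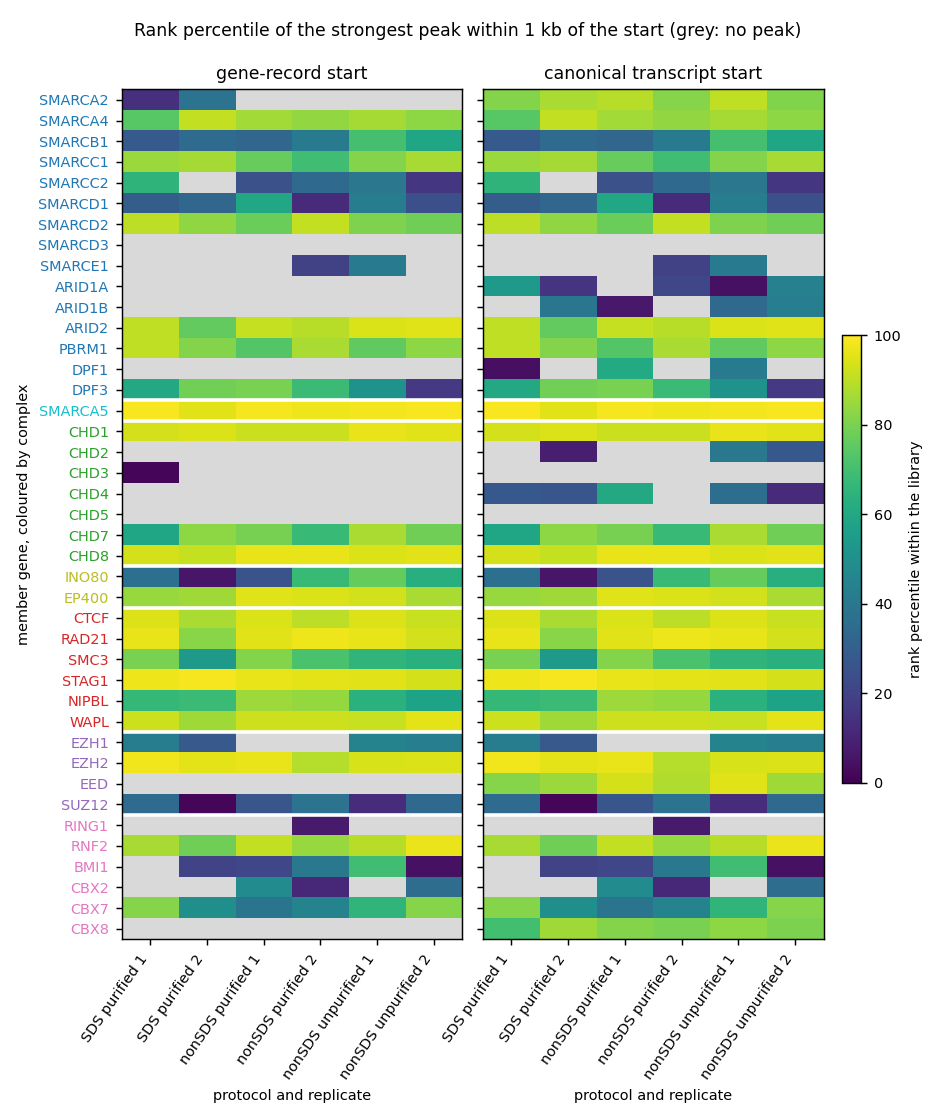
Rank percentile of the strongest peak within 1 kb of the start (colour, 100 is the strongest peak of the library) for the 41 genes (rows, coloured and divided by complex) in the 6 libraries (columns), at the gene-record start (left) and at the canonical transcript start (right), with grey where there was no peak. SMARCA2, EED and CBX8 turn from grey or dark to bright between the panels, CTCF and cohesin genes have no grey cell, and SMARCD3 and CHD5 are grey throughout.

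Rank was taken by −log10 q within each library, as the percentile at which 100 is the strongest peak. Over the 24 genes called in all 6 libraries, the median of the mean rank was the 83.8th percentile (quartiles 67.1 and 92.5), against the 78.8th for all 8146 genes called in all 6 (quartiles 62.3 and 90.8). The median of their mean peak widths was 765 bp against 664 bp. In 9 of the 24 (37.5%) the mean rank was at or above the 90th percentile of the peaks, against 27.2% of the 8146. The summit lay within 250 bp of the gene start in 87.5% of them and in 76.6% of the 8146, and at a median position of −74.2 bp, upstream of the start. The 84 other subunits of the same complexes did not share this rank. Over the genes called in each library, their median rank was 63.6 to 74.6, below that of all genes (73.5 to 76.8) in every library. The module was at 81.0 to 84.0 on this measure. Of the other subunits called, 15.4% to 20.6% were at or above the 90th percentile, against 24.7% to 26.9% of all genes called. The median width of the other subunits was 569 to 699.5 bp, against 560 to 650 bp. All these are descriptions of chosen lists, and no test was made over them.

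**Figure D3:**
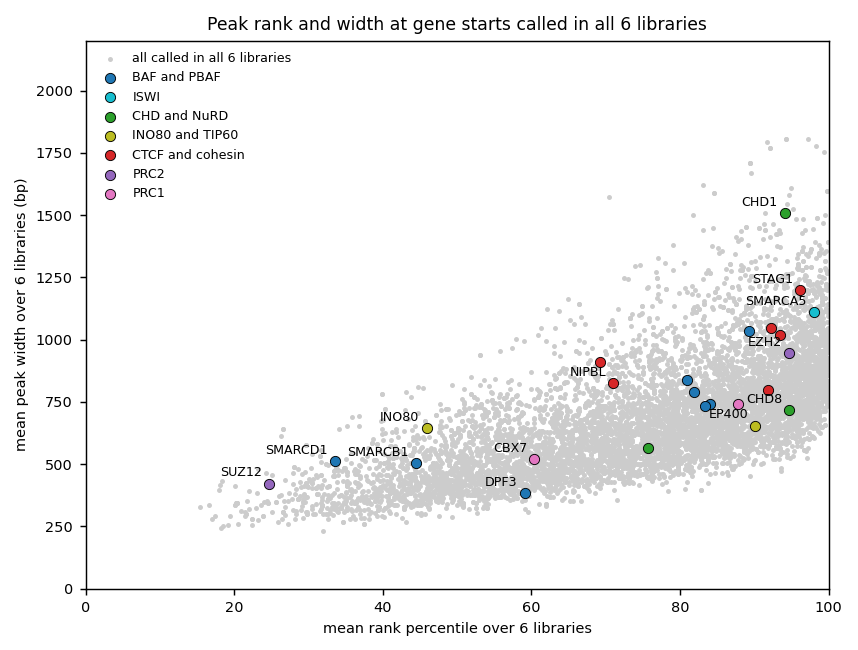
Mean width in bp (vertical axis) against mean rank percentile (horizontal axis) over the 6 libraries for the 8146 genes called in all 6 libraries (grey) and the 24 of the module among them (coloured by complex, with the names of the extreme ones). CHD1, STAG1 and SMARCA5 are wide and highly ranked, and SUZ12, SMARCD1 and SMARCB1 lie at the low end.

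BAF and PBAF are the mammalian SWI/SNF remodelers. Of the 15 genes of this group, 8 were called in all 6 libraries at the gene start, 3 in part and 4 in none. Over all genes, 40.5% were called in all 6 and 45.4% in none. At the canonical start 9 of the 15 were called in all 6, against 42.8% of all genes. Only SMARCD3 was called in none there, against 42.4% of all genes. The group called in all 6 contained the ATPase SMARCA4, the core subunits SMARCB1 and SMARCC1, SMARCD1 and SMARCD2, the PBAF subunits ARID2 and PBRM1, and DPF3. The median of their mean ranks was 81.4 and their mean widths ran from 384 to 1033 bp.

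ARID2, the DNA-binding subunit of PBAF, had the highest mean rank of the group. Its percentiles were 90.4 and 76.0 in SDS purified, 91.3 and 89.2 in nonSDS purified and 94.2 and 95.0 in nonSDS unpurified, a mean of 89.4 ± 6.93 (SD, n = 6). Its peak was 991 to 1107 bp wide, with the summit at a median of −778 bp, which is away from the start. The local background there was high, at 11.5 to 14.7 reads, and the fold enrichment therefore only 4.33 to 5.97 for summits of 53 to 89 reads.

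SMARCD1, the broadly used paralog of SMARCD3, had the lowest rank of the group among those called in all 6. Its percentiles were 29.5 and 33.1 in SDS purified, 60.0 and 12.5 in nonSDS purified and 41.9 and 24.5 in nonSDS unpurified, from 12 to 21 summit reads. The nonSDS purified replicates spanned the whole range of this gene. DPF3, a paralog of DPF1 that reads acetylated histones and is best known from heart and muscle, was at 60.2 and 78.7 in SDS purified, 79.9 and 68.4 in nonSDS purified and 51.1 and 16.4 in nonSDS unpurified.

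The tissue-restricted paralogs differed from each other. DPF3 was called in every library with 15 to 30 summit reads. DPF1 was called in none at the gene start, but at its canonical start, 5492 bp away, in 3 libraries, which were replicate 1 of each protocol, with 11, 19 and 16 summit reads and percentiles of 4.06, 61.1 and 41.4. SMARCD3 had no peak at any coding start and no peak in its gene body, and the nearest peak in 5 libraries was 45192 to 45265 bp from the gene start, whereas in nonSDS purified replicate 1 it was at 25730 bp. Its canonical start, 29202 bp from the gene start, had 73.3% GC and 36 CpG in the 300 bases around it, with no peak in any library.

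Partial calls in the BAF group rested on few summit reads. Some BAF genes called in all 6 libraries had similar heights, with 12 to 21 reads for SMARCD1 and 15 to 24 for SMARCB1. SMARCC2, a core scaffold subunit, was called in 5 libraries at percentiles of 65.1 in SDS purified replicate 1, 24.9 and 34.1 in nonSDS purified and 39.7 and 16 in nonSDS unpurified, with 16 to 25 summit reads, and was missed in SDS purified replicate 2. SMARCE1, the subunit with an HMG box, was called only in nonSDS purified replicate 2 (percentile 19.4, 12 reads) and nonSDS unpurified replicate 1 (percentile 41.4, 16 reads). In the library where it was called, each of these SMARCE1 peaks stood on the lowest local background of that library, at 1.51 and 1.76 reads.

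SMARCA2, the second SWI/SNF ATPase, gave a different picture at its starts. At the gene start it was called only in the SDS purified libraries, at percentiles of 13.9 and 38.0 with 13 and 16 summit reads. At its canonical start, 35057 bp downstream, it was called in all 6, at 81.5 and 87.5 in SDS purified, 89.2 and 81.7 in nonSDS purified and 90.3 and 81.0 in nonSDS unpurified, with 46 to 61 reads. The gene-start peak was the only one of the module seen in both libraries of one protocol and in no other library, and it was a low peak.

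ARID1A and ARID1B, the alternative DNA-binding subunits of canonical BAF, were in no library at the gene start. At its canonical start, 2779 bp downstream, ARID1A was called in 5 libraries, at percentiles of 54.1 and 15.0 in SDS purified, 21.4 in nonSDS purified replicate 2 and 4.46 and 43.6 in nonSDS unpurified, with 16 to 25 reads. ARID1B was called at its canonical start in 4 libraries, at 39.1 in SDS purified replicate 2, 7.0 in nonSDS purified replicate 1 and 34.1 and 42.7 in nonSDS unpurified. With any coding start ARID1B was called in all 6, at a mean percentile of 81.8 ± 7.46 (SD, n = 6), through a start deep in the gene whose summit lay at 245524 bp.

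SMARCA5, the ISWI ATPase that spaces nucleosomes and works with several partners, had the highest ranked promoter of the whole module. Its percentiles were 99.1 and 95.6 in SDS purified, 98.8 and 97.3 in nonSDS purified and 98.1 and 99.2 in nonSDS unpurified, a mean of 98.0 ± 1.38 (SD, n = 6). Its best rank was 273 and its worst 1529 in a list. The peak was 990 to 1217 bp wide, with 64 to 96 reads at a summit close to −211 bp, within the sequence shown above. Its paralog SMARCA1 was called in no library at any coding start.

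The CHD remodelers were divided, as were all genes, with 40.5% of all genes called in all 6 libraries and 45.4% in none. Of 7 genes, CHD1, CHD7 and CHD8 were called in all 6 libraries, CHD3 in 1, and CHD2, CHD4 and CHD5 in none at the gene start. CHD8, which binds many promoters and is known from autism genetics, stood highest, at 93.5 and 91.2 in SDS purified, 96.7 and 96.7 in nonSDS purified and 94.8 and 95.6 in nonSDS unpurified. CHD1, which acts with elongating polymerase, had the widest peaks of the module, with 1388 to 1713 bp and a mean of 1508 ± 148 bp (SD, n = 6). CHD7, mutated in CHARGE syndrome, was the lowest of these, at 59.0 and 82.9, 79.7 and 67.3, and 87.3 and 78.4 in the same order of protocols.

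CHD3, CHD4 and CHD5 are the alternative ATPases of NuRD, a complex that also deacetylates histones, and none of them had a peak in all 6 libraries. CHD4 was called in 5 libraries at its canonical start, 7145 bp from the gene start, at percentiles of 27.4 and 26.9 in SDS purified, 60.2 in nonSDS purified replicate 1 and 36.0 and 11.8 in nonSDS unpurified, with 19 to 26 reads. CHD3 was called only in SDS purified replicate 1, at percentile 1.24 with 11 reads, and the summit of that peak was 1040 bp from the gene start, outside the window. CHD5 had no peak within its gene, and the nearest peak lay 19003 to 19134 bp from its start in all 6 libraries.

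CHD2, which deposits histone variant H3.3, was among the strongest of the module once the strongest peak over its 8 coding starts was taken. At the canonical start it was called in 3 libraries, at 8.47 in SDS purified replicate 2 and 40.2 and 27.3 in nonSDS unpurified. With any coding start it was called in all 6 at a mean percentile of 96.4 ± 0.823 (SD, n = 6), with 61 to 80 reads and a summit 18177 bp from the gene start. The canonical window of CHD2 had 3 CpG and an observed to expected CpG ratio of 0.139, the lowest of the 41 genes.

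INO80, the ATPase of its namesake complex, and EP400, the ATPase of TIP60, which exchanges histone H2A.Z, were both called in all 6 libraries but at different ranks. EP400 was at 84.5 and 85.8 in SDS purified, 94.9 and 94.8 in nonSDS purified and 93.2 and 87.4 in nonSDS unpurified. INO80 was at 36.5 and 6.07 in SDS purified, 25.5 and 67.8 in nonSDS purified and 76.5 and 63.1 in nonSDS unpurified, with 13 to 31 reads. The ranges of the 2 genes over the 6 libraries did not overlap.

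CTCF and cohesin formed the only group of more than 2 genes that was complete. All 6 genes were called in all 6 libraries, against 40.5% of all genes. Their median mean rank was 92 and their mean widths were 799 to 1200 bp. For all genes called in all 6 libraries, the median mean rank was 78.8 and the median mean width 664 bp. STAG1, an alternative subunit of cohesin, led with 97.6 and 98.5 in SDS purified, 96.6 and 95.7 in nonSDS purified and 95.4 and 93.5 in nonSDS unpurified. SMC3, a coiled-coil arm of the ring, was lowest with 80.0 and 54.1 in SDS purified, 81.5 and 71.1 in nonSDS purified and 65.4 and 63.5 in nonSDS unpurified.

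The other 4 lay between. The insulator protein CTCF had percentiles of 87.2 to 94.9, the kleisin RAD21 82.3 to 97.4 and the cohesin release factor WAPL 85.9 to 95.8. The loader NIPBL had 66.8 and 68.2 in SDS purified, 85.2 and 84.3 in nonSDS purified and 63.7 and 58.1 in nonSDS unpurified. Of the 14 other CTCF and cohesin genes, 10 were called in all 6 libraries, against 40.5% of all genes. The 3 called in none at any coding start were SMC1B, RAD21L1 and CTCFL, the paralogs of SMC1A, RAD21 and CTCF that are used in germ cells.

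In PRC2, EZH2 and SUZ12 were called in all 6 libraries at the gene start, EZH1 in 4 and EED in none. Over all genes, 40.5% were called in all 6 and 45.4% in none. EZH2, the methyltransferase of dividing cells, stood at 97.9 and 95.9 in SDS purified, 96.8 and 88.7 in nonSDS purified and 94.0 and 94.6 in nonSDS unpurified. EZH1, its paralog best known from resting cells, was at 42.0 and 28.0 in SDS purified and 44.7 and 43.0 in nonSDS unpurified, with 13 to 17 reads, and was missed by both nonSDS purified libraries. Every EZH2 percentile was above every EZH1 percentile.

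The core partners of EZH2 lay at opposite ends. SUZ12, the scaffold of PRC2, had the lowest mean rank of the 24 module genes called in all 6 libraries, with 35.0 and 1.63 in SDS purified, 26.7 and 38.0 in nonSDS purified and 12.6 and 34.2 in nonSDS unpurified, from 10 to 15 reads. EED, the subunit that reads the methyl mark, had no peak at the gene start, but at its canonical start, 43541 bp downstream, it was at 81.9 and 85.1 in SDS purified, 93.7 and 87.9 in nonSDS purified and 95.6 and 85.7 in nonSDS unpurified, with 42 to 73 reads.

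PRC1 had the largest share of partial calls of these complexes, with 3 of 6 genes, against 2846 of 20136 over all genes. In all 6 libraries, 2 of its 6 genes were called, against 40.5% of all genes. RNF2, the main ubiquitin ligase, was called in all 6 at 86.8 and 78.4 in SDS purified, 90.8 and 84.8 in nonSDS purified and 89.3 and 96.9 in nonSDS unpurified. Its paralog RING1 was called once, in nonSDS purified replicate 2, at percentile 7.39 with 13 reads. CBX7, a chromodomain subunit, was called in all 6 at 81.9 and 49.9, 38.4 and 44.9, and 65.6 and 81.8 in the same order of protocols.

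The other chromodomain genes stand side by side on chromosome 17 and differed from each other. CBX2 was called in 3 libraries, at 48.4 and 11.4 in nonSDS purified and 35.6 in nonSDS unpurified replicate 2, with 12 to 18 reads. CBX8 had no peak at its gene start, but at its canonical start, 4606 bp away, it was at 69.8 and 85.6 in SDS purified, 81.6 and 79.9 in nonSDS purified and 83.2 and 80.3 in nonSDS unpurified. BMI1, the partner of RNF2 that supports self-renewal, was called in 5 libraries, at 20.3 in SDS purified replicate 2, 21.5 and 40.1 in nonSDS purified and 69.2 and 4.45 in nonSDS unpurified.

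Rank and read height did not always go together in the module, because fold enrichment and q are measured over the local background. BMI1 had 25 to 44 summit reads, more than CBX7 in 4 of the 5 libraries that called it, on a background of 6.26 to 8.86 reads. CHD2 and ARID1B at their canonical starts had summits of 21 to 31 and 25 to 29 reads, over backgrounds of 5.50 to 7.26 and 5.52 to 7.70 reads. The SUZ12 peaks by contrast rested on 10 to 15 reads over a background of 1.58 to 2.02 reads. Over the genes called, the median local background at the gene start was 3.60 to 4.53 reads for the module and 3.20 to 3.96 reads for all genes.

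**Figure D4:**
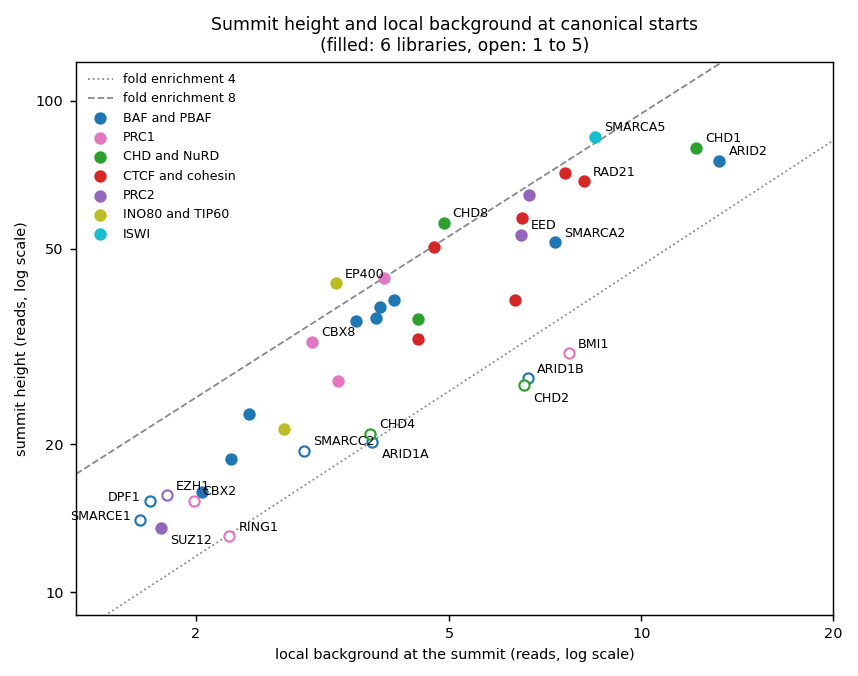
Mean summit height in reads (vertical axis, log scale) against mean local background in reads (horizontal axis, log scale) for the peak at the canonical start of each gene of the module, over the libraries that called it, with filled points for genes called in all 6 and open points for 1 to 5. The dotted and dashed lines mark a fold enrichment of 4 and 8. The open points lie near 2 reads of background or close to the 4-fold line, up to BMI1.

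Other subunits of the same complexes, 84 genes that are not part of the module, were called in all 6 libraries in 58 cases (69.0%) and in none in 16 (19.0%). Over all genes these shares were 40.5% and 45.4%. By complex, 9 of 13 BAF and PBAF genes, 5 of 8 ISWI partners, 8 of 11 CHD and NuRD genes, 11 of 14 INO80 and TIP60 genes, 6 of 9 PRC2 genes and 9 of 15 PRC1 genes were called in all 6. With any coding start the number without a call was 10 (11.9%), against 39.5% of all genes. These 10 were the neuronal BAF actin ACTL6B, BCL7A, SMARCA1, CECR2, MTA1, SMC1B, RAD21L1, CTCFL, the PRC2 inhibitor EZHIP and the PRC1 subunit PCGF2. HDAC2, VPS72, PHF19, AEBP2, KDM2B and BCOR had no call at the gene start but were called at another coding start.

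The promoters shared a base composition that the choice of genes did not use. In the 300 bases from 250 before to 50 after the canonical start, the median GC content was 71.3% for the 41 genes and 63.7% for all genes. The median observed to expected CpG ratio was 0.959 against 0.773, and 39 of 41 (95.1%) had a ratio of at least 0.6, against 67.0% of all genes, 93.3% of genes called in all 6 libraries at that start and 35.8% of genes called in none. The exceptions were CHD2 and CHD3, with ratios of 0.139 and 0.443. SMARCD3 and CHD5, which had no peak at any start, had ratios of 0.899 and 0.929.

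The GC box was present in 37 of 41 windows (90.2%), against 61.0% of all genes and 77.2% of genes called in all 6. The CCAAT box was in 36.6%, against 35.9% of all genes and 40.8% of genes called in all 6. The ETS core was in 26.8%, against 22.6% and 34.3%, and the E-box in 7.32%, against 8.75% and 11.1%. The CRE, NRF1 and YY1 motifs were each in 2 of the 41 windows (4.88%), against 2.68%, 2.69% and 2.82% of all genes and 3.94%, 4.94% and 4.87% of genes called in all 6. The TATA box was in none, against 9.81% and 4.35%. In 1 of 41 genes, PBRM1, the canonical start of another protein-coding gene lay within 1 kb in the divergent direction (GNL3, 119 bp away), against 9.36% of all genes.

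To ask whether the way of reverse crosslinking changed these promoters, the summit enrichment and the peak width of the strongest peak were compared between protocols with limma over all 8146 genes called in all 6 libraries. No gene passed an adjusted p of 0.05 (Benjamini-Hochberg) in any of the 3 contrasts for either measure, so the share called was 0% in all 6 cases. At an unadjusted p under 0.05 in limma, summit enrichment gave 496 genes (6.09%) for nonSDS purified against SDS purified, 440 (5.4%) for nonSDS unpurified against SDS purified and 353 (4.33%) for nonSDS unpurified against nonSDS purified. Width gave 547 (6.71%), 603 (7.4%) and 344 (4.22%) in the same order. Of the 24 genes of the module, 2, 4 and 4 were under this level for enrichment and 2, 2 and 1 for width. No other tool was run, since the values are ratios and lengths and not counts.

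The median log2 difference in enrichment of the 24 genes was 0.08, 0.05 and −0.08 for the 3 contrasts, and 0.04, 0.02 and −0.02 over all 8146. For width it was 0.12, 0.11 and 0.02, against 0.10, 0.13 and 0.03. The width difference from SDS purified was thus positive in the median of the module and of all genes. After quantile normalisation, which gives all libraries the same distribution of widths, the median of the 24 genes was 0.02 and −0.01 in the contrasts with SDS purified.

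NIPBL had the smallest limma p of the module in 2 of the enrichment contrasts. Its fold enrichment was 5.03 and 5.29 in SDS purified, 6.90 and 6.62 in nonSDS purified and 4.69 and 4.71 in nonSDS unpurified. The log2 difference of nonSDS purified from SDS purified was 0.39 ± 0.15 (SE, limma, unadjusted p = 0.0219, adjusted p = 0.782), and that of nonSDS unpurified from nonSDS purified was −0.52 ± 0.15 (SE, limma, unadjusted p = 0.00414, adjusted p = 0.902). Neither difference passed the correction over all genes. NIPBL was picked by its p, so the separation of its values adds no further support. The values did not all come from the same position. The summit lay at −713 bp in nonSDS unpurified replicate 1 and at −71 to −50 bp in the other libraries, and the window held 1 to 3 peaks.

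DPF3 had the smallest p in the remaining contrast. Its fold enrichment was 6.80 and 8.71 in SDS purified, 9.01 and 7.27 in nonSDS purified and 6.04 and 4.52 in nonSDS unpurified. The log2 difference of nonSDS unpurified from SDS purified was −0.56 ± 0.20 (SE, limma, unadjusted p = 0.0140, adjusted p = 0.833). This difference was −0.35 without nonSDS unpurified replicate 2 and −0.77 without replicate 1. DPF3 was also picked by its p.

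In width, SMARCD1 and SMC3 stood out among the 24 and were chosen after their values were seen. SMARCD1 peaks were 253 and 283 bp wide in SDS purified, 618 and 346 bp in nonSDS purified and 801 and 765 bp in nonSDS unpurified, and the log2 difference of nonSDS unpurified from SDS purified was 1.55 ± 0.29 (SE, limma, unadjusted p = 0.00211, adjusted p = 0.513). SMC3 peaks were 657 and 641 bp wide in SDS purified, 1088 and 1242 bp in nonSDS purified and 1037 and 799 bp in nonSDS unpurified. The SMC3 window held 2 peaks in replicate 2 of SDS purified and of nonSDS unpurified, where only the stronger was measured, and 1 peak in the other libraries. Neither gene passed the correction.

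**Figure D5:**
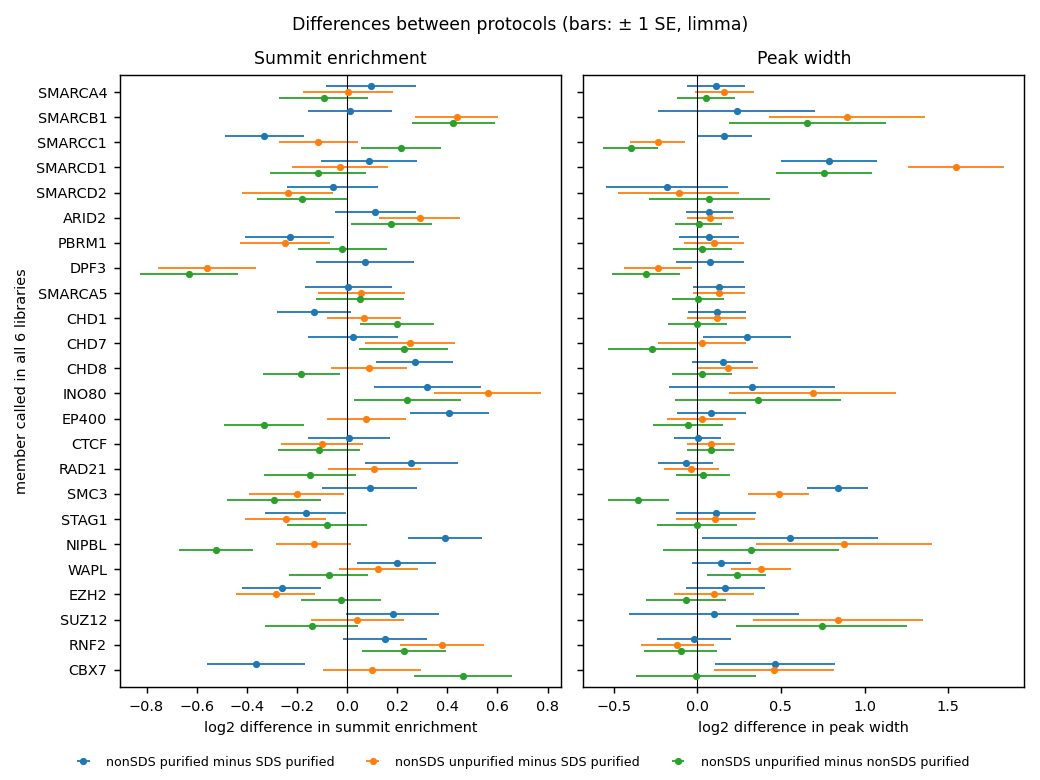
Log2 difference in summit enrichment (left) and in peak width (right) on the horizontal axes for the 24 genes called in all 6 libraries (rows), for the 3 contrasts between protocols (colours), with bars of 1 SE from limma. DPF3 lies furthest from 0 in enrichment at −0.63, SMARCD1 lies furthest in width at 1.55, and no gene passed an adjusted p of 0.05.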

How the data were processed

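ATAC-seq peaks of 6 GM12878 libraries were analysed, 2 for each of 3 reverse crosslinking protocols. Per the submitters' processing notes, the authors mapped reads to hg19 with Bowtie2 2.1.0, removed duplicates with Picard 1.79 and called peaks with MACS2, whose version is not given in the sources used here; DESeq is also listed, without a role. The methods give a q value of 0.01 and state merging of libraries within a condition, although each library has its own list here. The peak lists deposited by the authors carry a score (10 times the −log10 q). They also carry the fold enrichment at the summit relative to local background (a ratio), and both −log10 p and −log10 q. The score was not used.

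Reads at a summit and the local background were solved from the deposited fold enrichment and −log10 p, and the solution matched within 0.001 for 100% of peaks. These give the depth of each value, with no UMI, so precision covers counting only. Gene starts were those of GENCODE version 44 on GRCh37, and all peak ends lay within its 24 chromosomes. The strongest peak of a 1 kb window was used. The canonical start is that of the transcript tagged Ensembl canonical, and was added as an alternative after the data were seen, as were the 8 motifs. Promoter tables of another build were not used. Protocols were compared on log2 values with limma 3.58.1 in R 4.3.3, fitted over all 6 libraries without a replicate block and adjusted over all genes (Benjamini-Hochberg). The fit was tested on simulated data. Other steps used Python 3.11.15, NumPy 2.4.6, pandas 2.3.3, SciPy 1.17.1 and matplotlib 3.10.9.

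The genes, the other subunits and the marker lists were chosen with earlier results of these data known. Values in every library are given for genes missed by at least 1 library, for the highest and lowest ranked gene called in all 6 in each complex, and for the smallest limma p in each enrichment contrast. The alternatives were windows of 500 and 2500 bp, other starts, a −log10 q of at least 5, equal peak numbers, summits inside the window, quantile normalisation, depth-scaled reads, distinct peaks, a replicate block and leaving out each library.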

Additional observations from a re-analysis of the deposited data

How the results depend on the processing

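The 41 genes were called in 67.9% ± 1.84 of cases per library (SD, n = 6) as reported. This became 73.6% with a window of 2500 bp, 84.6% with any coding start, 82.1% with the canonical start, 65.4% with 30136 peaks in each library and 64.6% when peaks needed a −log10 q of 5. Genes in no library fell from 9 to 2 with any coding start and 3 with the canonical start. The median rank over called genes moved from 82.2 to 78.8 with a window of 2500 bp and to 80.9 with the canonical start. These moves exceed the spread between libraries, or 1.5 times for counts, and follow from which peaks enter the window or the list. Of 179 values under alternatives, 170 stayed within those limits or, for tested differences, kept their direction and side of the threshold. Many of the 170 were limma counts of 0 set against a count of 0. The 170 include all values that leave out a library. For the share called and the rank this was fixed in advance, because leaving out 1 library cannot move their mean by more than the SD. The DPF3 difference between nonSDS unpurified and SDS purified (−0.56) then ran from −0.77 to −0.35, the latter without nonSDS unpurified replicate 2. Without 1 library, 24 or 25 genes were called in all those remaining.

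No limma fit called a gene, over 42 fits of enrichment and 39 of width, and the smallest adjusted p was 0.147 and 0.0871. With the replicate block the count of calls was 0 in each contrast, and the difference of NIPBL between nonSDS unpurified and nonSDS purified was −0.52 ± 0.16 (SE). The labels give only a shared number, so this is no pairing. Depth-scaled summit reads moved the median of all genes for nonSDS purified against SDS purified by 0.13 on the log2 scale. With these reads 21 of 24 module genes were higher, against 17 as reported. Over all 8146 genes 78.2% were higher, against 59.7% as reported. Quantile normalisation moved the median width difference by −0.12 and −0.15 for the contrasts with SDS purified. After it, 15 and 12 of 24 were wider, against 21 and 19 as reported. The shares over all genes were 46.4% and 46.2%, against 67.8% and 73.6% as reported. The partly called genes rested on 11 to 44 summit reads, and the part of depth in their calls was not tested.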
